A study of Mus musculus with 4 samples.

Results

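A set of 15 transcripts of glucose uptake and breakdown and 20 transcripts of the oxygen-sensing response were followed in mouse inner ear organoids. The 35 genes were taken by symbol from a table of 32289 genes, in which each of them had 1 row. Organoids are aggregates grown from pluripotent stem cells. These came from Atoh1-nGFP-ESC, a mouse embryonic stem cell line that carries a nuclear green fluorescent reporter (GFP) of Atoh1, a gene needed for hair cells to form. Cells of dissociated organoids were sorted by their GFP and captured singly for RNA sequencing with 10X Genomics chemistry. The 4 groups were day 16, day 20, day 21 with high GFP and day 21 with low GFP, with 1 library each. The GFP gate is named for day 21 alone, and the sample descriptions speak of nuclei where the protocol speaks of cells. All groups share the 1 stem cell line and carry no other allele or treatment in the labels. The labels give the cells as otic lineage, whereas markers placed 28.8% of day 16 and 48.2% of day 20 cells in mesenchyme.

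Glycolysis splits glucose into pyruvate in the cytosol, and lactate dehydrogenase and a lactate exporter let it run when mitochondria cannot take up the pyruvate. In normal oxygen the prolyl hydroxylases of the Egln family mark the transcription factor subunit Hif1a for destruction. When oxygen falls the protein is spared, pairs with Arnt, and binds short elements in the promoters of glycolytic genes and of genes such as Vegfa, Car9, Adm and Bnip3. Hif1a is controlled mainly as a protein, so its mRNA is not a measure of its activity. In aggregates without blood vessels, oxygen reaches inner cells by diffusion alone.

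There were 3353, 4313, 3428 and 3669 cells after filtering at day 16, day 20, GFP high and GFP low, with median depths of 15196, 8833, 28858 and 22168 UMIs (unique molecular identifiers, each 1 captured RNA molecule) and library totals from 41858201 to 106842179. Between 1 and 7 cell barcodes were shared by any pair of libraries. Cells were assigned to a class when the summed level of its marker genes passed a set level and no other class's did, which placed 76.2% to 84.9% of the cells of a library. Hair-gated cells, the mechanosensory cells of the ear, numbered 148, 139, 2212 and 774 in the order day 16, day 20, GFP high and GFP low, and that order is used for every run of 4 values. Neuron-gated cells numbered 1067, 573, 200 and 962, and mesenchyme-gated cells 967, 2077, 51 and 116. Epidermis-gated cells numbered 174, 109, 43 and 72, and cells with markers of Merkel cells, the touch receptors of skin, 319, 587, 27 and 104. Supporting cells, the epithelial neighbours of hair cells, numbered 331 and 642 at day 21 and only 15 and 12 at days 16 and 20, so they were described at day 21 alone. All 16 hair cell markers were at or above 10 CPM (the gene's UMIs scaled to a common total of UMIs in the class) in hair-gated cells of all 4 libraries. Of the hair-gated cells, 21, 20, 94 and 62 lay no more than 25% above the gate level. Hair-gated cells also held Merkel markers, at medians of 45.9 and 24.9 UMIs per 10000 at days 16 and 20 and 10.9 in the GFP high library. The 6 blood markers summed to at most 2.1 CPM in hair, neuron, mesenchyme, epidermis and Merkel cells. With 1 library per group there were no replicates, so differences between libraries carry counting intervals and no p-value, and such intervals cover counting error only.

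The members differed in level between classes before any comparison of days. Car9, a cell-surface carbonic anhydrase, reached 521 and 700 CPM in supporting cells of the GFP high and GFP low libraries. In hair cells Car9 stood at 61.8, 145, 235 and 370 CPM. In neurons Car9 stood at 2.36, 0.556, 12.0 and 6.35 CPM. Neurons were below hair cells in each of the 4 libraries, and the ranges of the 2 classes did not overlap. Slc2a1, the glucose transporter GLUT1, was highest in the epidermis class in each library, at 357, 594, 1217 and 1256 CPM. Slc2a1 was lowest in neurons in each library, at 40.8, 30.6, 47.1 and 82.7 CPM. Plod2, a collagen lysyl hydroxylase, stood at 292 and 416 CPM in supporting cells against 16.3 to 41.8 CPM in neurons. Hif1a itself was at 239 and 221 CPM in supporting cells and between 56.9 and 120 CPM in hair, neuron, mesenchyme, epidermis and Merkel cells. Ndrg1, a stress-responsive gene, was at 182, 243, 609 and 663 CPM in the epidermis class, and its values in neurons ran from 10.4 to 23.7 CPM.

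**Figure D1:**
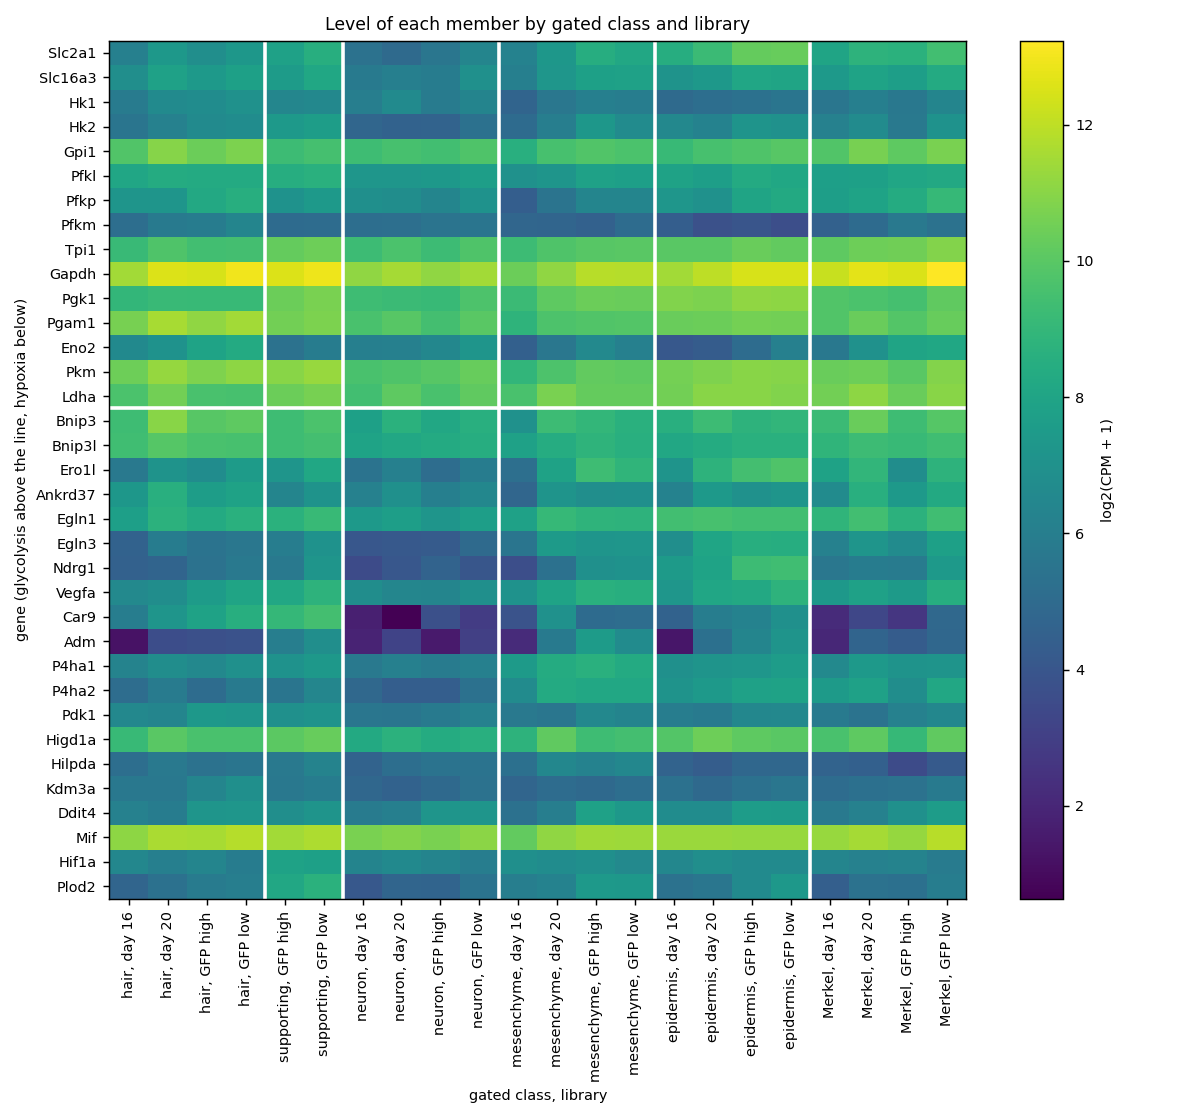
Colour gives log2(CPM + 1) of each of the 35 genes (rows, glycolysis above the white line and hypoxia below) in each gated class and library (columns); libraries with under 20 cells of a class are not drawn. Car9 and Adm form the darkest squares of the map, with Car9 at 0.556 CPM in day 20 neurons and at 700 CPM in GFP low supporting cells.

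The day 20 library was compared with the day 16 library within each class, to see how the members differed between these stages of the culture. Adm, Ero1l, Ankrd37 and Egln3 were called higher at day 20 in mesenchyme, hair, Merkel and epidermis cells, Bnip3 in the first 3 of these and Car9 in mesenchyme, hair and epidermis cells. Of the 20 hypoxia members 11 passed in mesenchyme and 5 or 6 in each of the other 3 classes, and glycolysis members passed in mesenchyme, hair cells and, for Eno2 alone, Merkel cells. In neurons no member passed. A gene was called when its CPM ratio was at least 2 either way, the exact 95% interval of the ratio excluded 1, and either library held 10 CPM or more. No member was called lower at day 20 in any class or in all cells together.

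In mesenchyme 11 of 20 hypoxia members and 7 of 15 glycolysis members were called higher, against 3.87% of all 8934 genes tested called higher and 8.8% called lower. The median log2 ratio was 1.19 for the hypoxia members, 0.93 for the glycolysis members and -0.20 for all genes. Adm, which encodes the vasodilator peptide adrenomedullin, rose from 3.55 to 55.3 CPM, a ratio of 15.6 (95% interval 11.4 to 21.9). Car9 rose from 13.3 to 128 CPM, a ratio of 9.59 (8.14 to 11.4). Ero1l, the oxidase that helps form disulphide bonds in the endoplasmic reticulum, rose from 36.7 to 233 CPM, a ratio of 6.36 (5.75 to 7.04). These 3 changes came from genes low in mesenchyme at day 16. Bnip3, a receptor for the removal of mitochondria, rose from 130 to 627 CPM, a ratio of 4.84 (4.58 to 5.11). The ankyrin repeat gene Ankrd37 rose 5.28-fold and the oxygen sensor Egln3 3.91-fold. P4ha2, a subunit of the enzyme that hydroxylates collagen prolines, rose from 104 to 318 CPM, a ratio of 3.07 (2.89 to 3.27). Ndrg1 rose 3.4-fold, the mitochondrial protein gene Higd1a 2.67-fold, Egln1 2.31-fold and the lipid droplet gene Hilpda 2.3-fold. The related gene P4ha1 had a ratio of 1.87 and was not called. Hif1a stood at 117 and 107 CPM at days 16 and 20.

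The glycolysis members called in mesenchyme belonged to glucose entry, early steps, a late step, and the making and export of lactate. Tpi1, Gapdh, Pgk1, Pgam1 and Pkm had ratios from 1.40 to 1.88 and were not called. Slc2a1 rose from 72.5 to 159 CPM, a ratio of 2.19 (2.03 to 2.37). Slc16a3, which exports lactate, rose from 67.2 to 153 CPM, a ratio of 2.27 (2.10 to 2.46). Ldha, which turns pyruvate into lactate, rose from 781 to 1666 CPM, a ratio of 2.13 (2.08 to 2.18). The enolase gene Eno2 rose 2.32-fold, the phosphofructokinase gene Pfkp 2.17-fold, the isomerase gene Gpi1 2.04-fold and the hexokinase gene Hk2 2.01-fold. The remaining 8 had ratios from 0.974 for the phosphofructokinase gene Pfkm to 1.94 for the hexokinase gene Hk1, so 14 of the 15 lay above 1. The count of 7 became 12 under TMM scaling, which moved the median log2 ratio of all genes from -0.20 to 0.10, and 4 with doublets kept. The share of all genes called under either setting was not taken.

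In hair cells 6 of 20 hypoxia members and 4 of 15 glycolysis members were called higher, against 4.7% of 9281 genes higher and 10.1% lower. Bnip3 rose from 634 to 2063 CPM, a ratio of 3.25 (3.11 to 3.40). Adm rose from 1.42 to 11.3 CPM, on 7 and 26 UMIs, a ratio of 7.94 (3.36 to 21.7). Both genes were thus higher at day 20, Bnip3 with a much narrower interval. Ero1l, Egln3, Ankrd37 and Car9 rose 2.66-, 2.59-, 2.39- and 2.35-fold. Slc2a1 rose from 69.8 to 160 CPM, a ratio of 2.30 (1.98 to 2.67). Gpi1, Gapdh and Slc16a3 rose 2.22-, 2.12- and 2.03-fold, and Gapdh, the dehydrogenase often used as a reference gene, reached 6020 CPM at day 20 from 2843 CPM. All 15 glycolysis members had a ratio above 1, with a median log2 ratio of 0.77 against -0.11 for all genes. Median depth of hair cells was 33145 UMIs at day 16 and 16921 at day 20, and their median Merkel marker sum 45.9 and 24.9 UMIs per 10000 (4788 and 5290 CPM summed over the class), whose part in these differences was not tested.

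Merkel cells had 5 of 19 hypoxia members tested and 1 of 15 glycolysis members called higher, against 2.9% of genes higher, 5.81% lower and 8.71% either way. Their Ankrd37 rose from 105 to 378 CPM, a ratio of 3.60 (3.28 to 3.96), and Adm 8.06-fold, Bnip3 2.23-fold, Egln3 2.09-fold and Ero1l 2.03-fold. Eno2 rose 2.61-fold in the same cells. Epidermis cells had 5 of 20 hypoxia members and no glycolysis member called, against 3.43% of genes higher and 16.5% lower. Adm in epidermis rose from 1.63 to 38.5 CPM on 6 and 59 UMIs, a ratio of 23.6 (10.2 to 66.9). Ero1l, Car9, Ankrd37 and Egln3 rose 3.14-, 2.65-, 2.3- and 2.29-fold there. Adm, Ero1l, Ankrd37 and Egln3 were therefore called in the same 4 of 5 classes. In the remaining class, neurons, Adm was not tested, as it stood at 2.72 and 8.06 CPM, a ratio of 2.96. Fewer hypoxia members were called in epidermis with a doubled gate level, and in Merkel cells with a halved one.

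Neurons had 0 of 15 glycolysis and 0 of 18 hypoxia members called, against 2.78% of genes higher, 3.47% lower and 6.26% either way. Ratios below 2 still leaned upward there, with 11 of 15 glycolysis and 14 of 18 hypoxia members above 1. Median log2 ratios were 0.15 and 0.25, against -0.03 for all genes. Bnip3 stood at 219 and 407 CPM in neurons, a ratio of 1.85, and Ankrd37 at 70.7 and 125 CPM, a ratio of 1.77. Car9 and Adm stayed under 10 CPM in neurons of both days and were not tested. Slc2a1 stood at 40.8 and 30.6 CPM, a ratio of 0.75, and Vegfa, the blood vessel growth factor, at 113 and 85.9 CPM, a ratio of 0.762. The difference between classes was taken as the log2 ratio of mesenchyme minus that of neurons, with a 95% counting interval. Its interval lay above 0 for 14 of 15 glycolysis and 15 of 18 hypoxia members, where 15.5% of all genes did, and below 0 for 0 and 2, where 42.3% did. For P4ha2 the difference was 2.12 (1.85 to 2.40), for Ero1l 1.98 (1.76 to 2.20) and for Slc2a1 1.55 (1.30 to 1.79). For hair cells minus neurons, 13 of 15 glycolysis and 10 of 18 hypoxia members lay above 0, against 14% of all genes, and 0 and 2 lay below, against 26.8%. For epidermis minus neurons, 3 of 15 and 6 of 18 lay above 0, against 7.29% of all genes, and 4 and 3 below, against 31.2%. For Merkel cells minus neurons, 9 and 10 lay above 0, against 15.3%, and 1 and 3 below, against 27.2%. For mesenchyme minus hair cells, 14 of 20 hypoxia and 5 of 15 glycolysis members lay above 0, against 16.1% of all genes, and 0 and 3 below, against 22.3%.

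**Figure D2:**
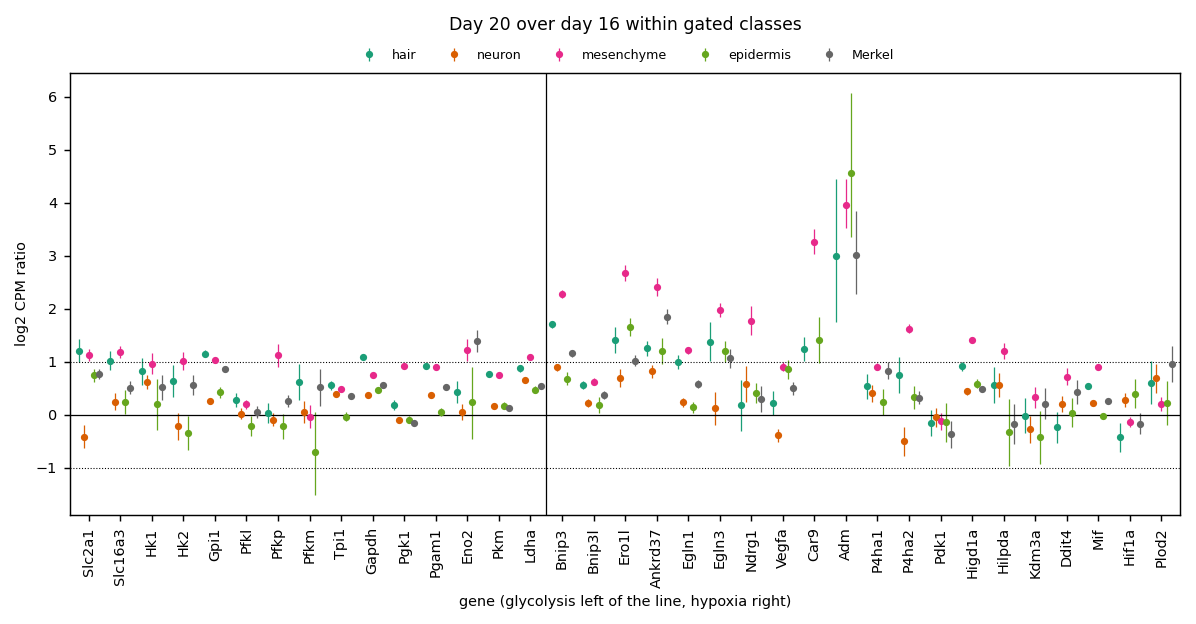
Points give the log2 CPM ratio of the day 20 over the day 16 library for each member (horizontal axis) in 5 gated classes (colours), with exact 95% counting intervals as bars; dotted lines mark ratios of 2 either way, and untested members are left out. Mesenchyme points lie highest for most hypoxia members, for instance Ero1l at a ratio of 6.36 against 1.61 in neurons, while Pdk1 lies below a ratio of 1 in all 5 classes (0.771 to 0.965), which TMM scaling turns to 1.12 in mesenchyme and epidermis.

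Of the hypoxia members, Pdk1, Kdm3a, Hif1a, Bnip3l, Ddit4 and Mif were among those called in no class between the days. Pdk1, a pyruvate dehydrogenase kinase gene, had ratios of 0.771 to 0.965 in the 5 classes, although TMM scaling put it at 1.12 in mesenchyme and in epidermis. The histone demethylase gene Kdm3a ranged from 0.75 to 1.251 and Hif1a from 0.746 to 1.31. Bnip3l, the close relative of Bnip3, was above 1 in all 5 classes, between 1.13 and 1.53, under the 2-fold rule. Ddit4, a brake on the growth kinase mTOR, ranged from 0.845 to 1.64, and the cytokine gene Mif from 0.983 to 1.87, with its highest ratios in mesenchyme and hair cells.

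In all cells together 9 of 20 hypoxia members and 0 of 15 glycolysis members were called higher, against 4.99% of genes higher and 6.74% lower. This whole-library value mixes classes, whose shares differed between the days. Other quantities moved with the days. The median mitochondrial share of a mesenchyme cell's UMIs was 2.07% at day 16 and 0.58% at day 20, and its median depth 12583 and 8536 UMIs. The share of mesenchyme cells with an Mki67 or Top2a UMI was 11.6% and 5.44%. Of 14 genes known to respond to tissue dissociation, 4 were called higher and 1 lower in mesenchyme, 8 and 0 in epidermis, 2 and 1 in hair cells, 4 and 1 in Merkel cells, and 0 and 1 in neurons. Their summed level was 10298 and 16539 CPM in mesenchyme and 986 and 920 CPM in hair cells. Of 13 genes of the unfolded protein and integrated stress responses, 4 were higher and 1 lower in mesenchyme, among them Chac1 at 3.58-fold, Trib3 at 3.26-fold and Ddit3 at 2.87-fold. The part of depth, dissociation and stress in the members' differences was not tested. Mesenchyme cells split by a UMI of Lum, which encodes the matrix proteoglycan lumican, a split chosen after the data were seen, gave 11 hypoxia and 6 glycolysis members higher in Lum-positive cells, against 3.88% of genes. Cells with no Lum UMI gave 15 and 8, against 6.18% of genes.

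The 250 bases before each member's RefSeq start were searched for the core of the hypoxia response element, the letters ACGTG or GCGTG on either strand. Promoters of assembly GRCm38.p6 matched 15 of 15 glycolysis and 16 of 20 hypoxia members. The core was found in 80% of these glycolysis genes, in 93.8% of these hypoxia genes and in 41.5% of all 27025 genes of the table. The letters ACGTG alone were in 53.3%, 68.8% and 18.5%. A gene counts when any of its listed promoters holds the core, and members have more promoters a gene than the table as a whole. Counted per promoter, the core was in 71.4% of 21 glycolysis, 71.4% of 21 hypoxia and 38.6% of all 32851 promoters. Shares were not matched for base composition, and a match is letters in a window, not a measured binding site. Members with and without a call differed in no simple way. Gpi1 and Eno2, called higher at day 20 in mesenchyme, held 0 cores. Hif1a, P4ha1 and Pgam1, called in no class between the days, held 3 each. Promoters of 4 genes are shown 5′ to 3′ on the gene's strand, picked among core-bearing genes called at day 20 in mesenchyme. The promoters shown hold from 2 to 5 cores. Capitals mark every core, which reads CACGT or CACGC where it lies on the opposite strand.
Bnip3, chr7:138909507-138909756, minus strand: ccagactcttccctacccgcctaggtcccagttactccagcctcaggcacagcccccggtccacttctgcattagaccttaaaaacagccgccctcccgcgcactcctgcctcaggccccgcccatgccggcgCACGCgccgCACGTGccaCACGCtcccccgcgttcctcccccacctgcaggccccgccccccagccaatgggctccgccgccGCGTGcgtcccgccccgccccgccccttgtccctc
Ankrd37, chr8:45999851-46000100, minus strand: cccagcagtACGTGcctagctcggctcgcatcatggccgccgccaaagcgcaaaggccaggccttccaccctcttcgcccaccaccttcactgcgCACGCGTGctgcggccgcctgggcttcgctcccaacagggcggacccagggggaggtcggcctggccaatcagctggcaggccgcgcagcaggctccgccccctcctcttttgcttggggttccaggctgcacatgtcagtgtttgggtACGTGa
Adm, chr7:110627407-110627656, plus strand: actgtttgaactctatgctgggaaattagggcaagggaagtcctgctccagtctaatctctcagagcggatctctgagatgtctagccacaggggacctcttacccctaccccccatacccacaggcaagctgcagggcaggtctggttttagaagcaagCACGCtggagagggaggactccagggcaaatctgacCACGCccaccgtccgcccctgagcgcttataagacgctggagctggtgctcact
Ldha, chr7:46845554-46845803, plus strand: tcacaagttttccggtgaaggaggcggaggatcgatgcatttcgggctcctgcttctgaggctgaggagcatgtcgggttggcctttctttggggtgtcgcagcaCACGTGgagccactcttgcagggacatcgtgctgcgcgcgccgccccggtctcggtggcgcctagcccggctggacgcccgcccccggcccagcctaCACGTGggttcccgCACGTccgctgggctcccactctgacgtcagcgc
Bnip3 held 5 cores and Ankrd37 4, of which 2 each were ACGTG, and Adm held 2 of GCGTG. Ldha held 5 before this start and 1 before its second listed start. The run CACGTG reads as a core on both strands and counts as 2. Ldha with 5 cores rose 2.13-fold and Adm with 2 rose 15.6-fold in mesenchyme. Whether the number of cores goes with the size of the change over the members was not tested.

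The GFP high and GFP low libraries of day 21 were compared within classes, since these libraries differ in reporter level at 1 age. In hair cells no member was called, glycolysis members were mostly somewhat lower with high GFP, and in supporting cells 2 hypoxia members were called lower. Hair cells had 0 of 15 glycolysis and 0 of 20 hypoxia members called, against 3.92% of genes higher, 1.72% lower and 5.64% either way. At a ratio of 1.5 the hypoxia members Ero1l, P4ha2 and Car9 would be called lower, 3 of 20 against 8.08% of genes higher and 4.58% lower. Their ratios were below 1 for 13 of 15 glycolysis and 16 of 20 hypoxia members, with median log2 ratios of -0.31 and -0.22 against 0.01 for all genes. Gapdh stood at 5639 and 7866 CPM, a ratio of 0.717, and Car9 at 235 and 370 CPM, a ratio of 0.635 (0.617 to 0.653). Ero1l had the lowest ratio among hair cell members, 0.577, at 108 and 187 CPM. Hif1a had the highest, 1.35, at 80.5 and 59.4 CPM. After thinning each cell to 3000 UMIs, 36.6% of GFP high and 48.1% of GFP low hair cells held a Car9 UMI, against 65.6% and 74.2% without thinning, and 13 cells of each library were too shallow. In neurons, which lack Car9 for the most part, the thinned shares were 4.52% and 1.05% at median depths of 21643 and 22850 UMIs. Median depths of the hair cells were 30254 and 25197 UMIs. Median log2 ratios of the glycolysis members were -0.15 in Cib3-positive, -0.41 in Ocm-positive, -0.42 in Grp-positive, -0.36 in Calb2-positive and -0.32 in Bmp2-positive hair cells. Other lists moved in the same hair cells. Of 14 dissociation genes 2 were called higher with high GFP and 0 lower, and of 12 unfolded protein and integrated stress genes 2 were higher and 0 lower, among them Psat1 at 3.87-fold. The 6 Merkel markers summed to 3145 CPM with high and 743 CPM with low GFP, and the part of these in the members' lower ratios was not tested. In Cib3-positive cells no member was called, against 3.92% of genes higher and 1.44% lower. In Ocm-positive cells 1 hypoxia member was lower, against 3.29% higher and 2.48% lower, and in Grp-positive cells also 1, against 3.18% and 1.9%. No member was called in Calb2-positive cells, against 4.82% and 2.31%, or in Bmp2-positive cells, against 2.67% and 0.63%.

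Supporting cells showed the only hypoxia members called between the GFP libraries in any class. Ndrg1 was lower with high GFP, at 52.7 against 147 CPM, a ratio of 0.358 (0.325 to 0.394). Egln3 was lower as well, at 62.0 against 134 CPM, a ratio of 0.464 (0.423 to 0.508). These were 2 of 20 hypoxia members, with 0 of 15 glycolysis members, against 1.48% of genes higher, 0.874% lower and 2.36% either way. Egln3 was no longer called when the gate level was doubled (ratio 0.561) or halved (0.559) or with the mean of per-cell CPM (0.511). All 15 glycolysis members had ratios below 1 in supporting cells. Adm stood at 63.7 and 114 CPM, a ratio of 0.561, and Ero1l at 144 and 282 CPM, a ratio of 0.511. Hair cell markers summed to 832 CPM in GFP high and 515 CPM in GFP low supporting cells, and Merkel markers to 542 and 102 CPM. Of 13 unfolded protein and integrated stress genes 3 were called lower with high GFP and 0 higher, and the median mitochondrial share was 3.40% and 2.35%. The part of these in the lower values was not tested.

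Neurons had 1 glycolysis member called, Slc16a3, lower with high GFP at 60.8 against 122 CPM, a ratio of 0.5 (0.441 to 0.565) at the edge of the rule. With doublets kept its ratio was 0.51 and it was not called. No other of 15 glycolysis and none of 19 hypoxia members passed there, against 2.73% of genes higher, 1.9% lower and 4.63% either way. All 15 glycolysis ratios were below 1, with a median log2 ratio of -0.53 against -0.03 for all genes. In the same neurons 6 of 9 cell cycle genes tested were called higher with high GFP, with the 15 genes of the list summing to 280 and 128 CPM, and 1 of 13 dissociation genes was higher. Their part in the members' lower ratios was not tested. Mesenchyme, with 51 and 116 cells, had no member called among 15 and 20, against 2.43% of genes higher, 2.65% lower and 5.08% either way. Its median log2 ratios were 0.07 and 0.06, so the lower values seen in the other 3 classes were not seen there. In all cells together no member was called, against 6.91% of genes higher and 7.67% lower.

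**Figure D3:**
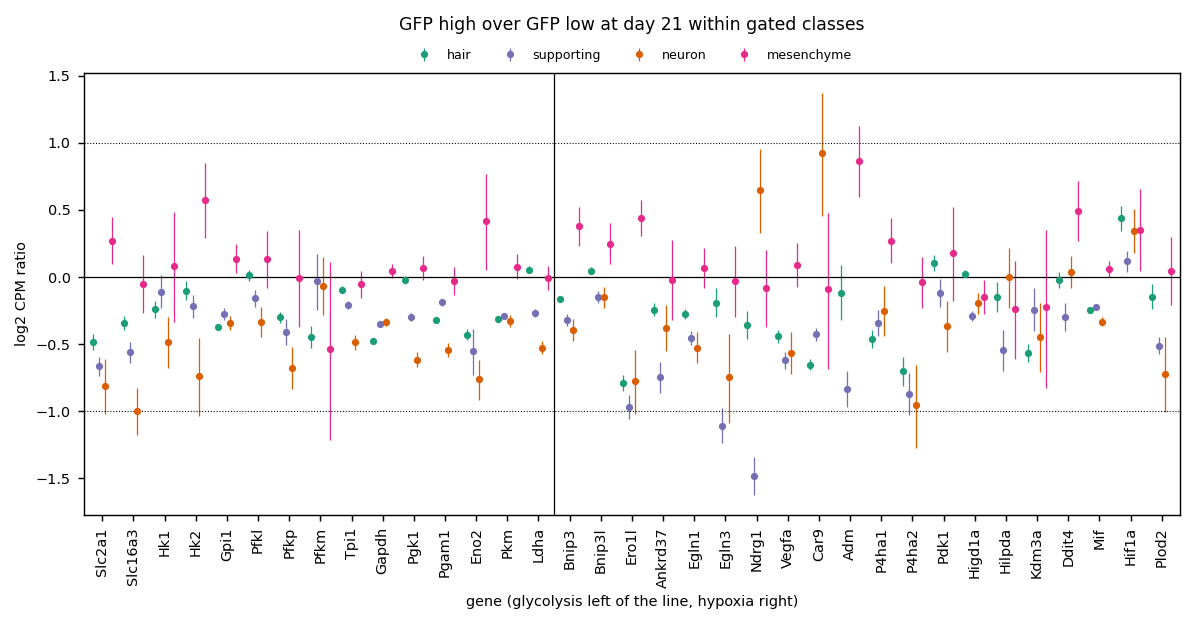
Points give the log2 CPM ratio of the GFP high over the GFP low library for each member (horizontal axis) in 4 gated classes (colours), with exact 95% counting intervals; dotted lines mark ratios of 2 either way, and untested members are left out. Most points lie between the dotted lines, and Ndrg1 in supporting cells lies lowest of those drawn, at a ratio of 0.358.

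Classes were then compared with each other over the 4 libraries, to ask how steady the class differences were. Hair cells were higher than neurons for most members of both groups, and mesenchyme was higher than neurons for most hypoxia members. Hair cells and mesenchyme each led for a different set. The test was edgeR's quasi-likelihood test on UMIs summed per library and class, with the library as a block and Benjamini-Hochberg adjustment over 17114 genes. Its p-values measure only steadiness over 4 libraries that differ in day and GFP sort.

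Hair cells exceeded neurons for 11 of 15 glycolysis and 14 of 20 hypoxia members and were lower for none, against 28.6% of genes higher and 29.3% lower. Median log2 fold changes were 1.01 and 0.998, against -0.02 for all genes. Car9 was higher by 5.27 ± 0.61 (log2, SE; edgeR adjusted p = 4e-07). Bnip3 was higher by 1.85 ± 0.22 (edgeR adjusted p = 6.1e-07) and Bnip3l by 1.45 ± 0.13 (edgeR adjusted p = 9.1e-09). Bnip3 stood at 634, 2063, 998 and 1119 CPM in hair cells and at 219, 407, 294 and 387 CPM in neurons. Hair cells were thus above neurons in each library and the ranges did not overlap. Pgam1, the mutase of the late part of the pathway, was at 1611, 3046, 2267 and 2831 CPM in hair cells and at 785, 1010, 697 and 1017 CPM in neurons. Its log2 fold change was 1.51 ± 0.16 (edgeR adjusted p = 9.6e-08). Pdk1 differed by 1.16 ± 0.13 (edgeR adjusted p = 1.6e-07). Tpi1, Pgk1, Ldha and Hk1 did not pass, with log2 fold changes of 0.02, -0.18, 0.09 and 0.41. Calls that ended without a single library were P4ha2 (without day 20, GFP high or GFP low), Pfkm (the same), Ndrg1 (day 20 or GFP low) and Pfkp (GFP low), with edgeR adjusted p up to 0.28, 0.13, 0.090 and 0.051.

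Hair cells against mesenchyme split the members. Of the glycolysis members 9 were higher in hair cells and 4 lower, and of the hypoxia members 6 were higher and 11 lower, against 29.7% of genes higher and 30.6% lower. Pfkp was higher in hair cells by 1.95 ± 0.27 (edgeR adjusted p = 2.6e-06), at 145, 148, 299 and 368 CPM against 20.1, 43.6, 80.7 and 81.1 CPM. Pgam1 and Eno2 were higher by 1.45 ± 0.16 and 1.59 ± 0.25 (edgeR adjusted p = 1.3e-07 and 1.5e-05). Pkm, the pyruvate kinase of the last step, was higher by 0.94 ± 0.18 (edgeR adjusted p = 0.00013) and exceeded neurons as well. Pgk1, the kinase that makes the first ATP of the pathway, was lower, with a log2 fold change of -1.14 ± 0.18 (edgeR adjusted p = 1.9e-05), as were Slc2a1, Ldha and Tpi1. The genes higher in hair cells among the hypoxia members were Bnip3, Bnip3l, Ankrd37, Car9, Pdk1 and Kdm3a. Car9 (edgeR adjusted p = 0.014) was not called without day 16, GFP high or GFP low, with an adjusted p of up to 0.13, and at day 20 it stood at 145 against 128 CPM. P4ha1, the other catalytic subunit for collagen prolines, stood at 76.1, 110, 89.2 and 123 CPM in hair cells and at 177, 332, 394 and 326 CPM in mesenchyme. Its log2 fold change was -1.79 ± 0.16 (edgeR adjusted p = 7.1e-09), and that of P4ha2 -2.68 ± 0.30 (edgeR adjusted p = 1.7e-07). These collagen-modifying genes, with Plod2 at -1.45 ± 0.20 (edgeR adjusted p = 3.3e-06), were all lower in hair cells. Calls of Slc2a1, Ldha, Ero1l, Egln1 and Ndrg1 also ended without a single library, day 20, GFP high or GFP low, with edgeR adjusted p up to 0.13, 0.061, 0.092, 0.18 and 0.16. Of the 14 dissociation genes 11 were lower in hair cells than in mesenchyme and 12 lower in neurons, and their part in these contrasts was not tested.

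Neurons were lower than mesenchyme for 16 of 20 hypoxia members and higher for none, against 27.9% of genes higher and 26.9% lower. The median log2 fold change was -1.33 against 0.05 for all genes. The 4 that did not pass were Bnip3, Ankrd37, Kdm3a and Ddit4, with log2 fold changes of -0.49, -0.28, -0.33 and -0.35. The log2 fold change was -3.40 ± 0.31 for P4ha2 (edgeR adjusted p = 1.5e-08) and -2.80 ± 0.28 for Egln3 (edgeR adjusted p = 6.2e-08). Egln3 stood at 15.6, 17.0, 18.2 and 30.5 CPM in neurons and at 45.8, 179, 146 and 150 CPM in mesenchyme. Of the glycolysis members 7 were lower in neurons and Pfkp was higher, by 0.94 ± 0.26 (edgeR adjusted p = 0.0048). Slc2a1, Hk2 and Slc16a3, which move or trap glucose and export lactate, had the lowest values, with log2 fold changes of -2.22, -1.72 and -1.33. Mesenchyme had only 51 and 116 cells at GFP high and GFP low, with Slc2a1 at 356 and 295 CPM there and at 72.5 and 159 CPM at days 16 and 20. Without day 16 Pfkp was not called (edgeR adjusted p = 0.11), whereas Bnip3, Ankrd37, Ddit4, Gapdh and Gpi1 were called lower. Ldha was not called without day 20, Pdk1 without GFP high, Bnip3l without day 20 or GFP high, or Pfkl and Mif without day 20, GFP high or GFP low. Hair and supporting cells shared only the 2 day 21 libraries, so their difference was not tested. Pgk1 stood at 1373 and 1685 CPM in supporting and at 555 and 565 CPM in hair cells.

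**Figure D4:**
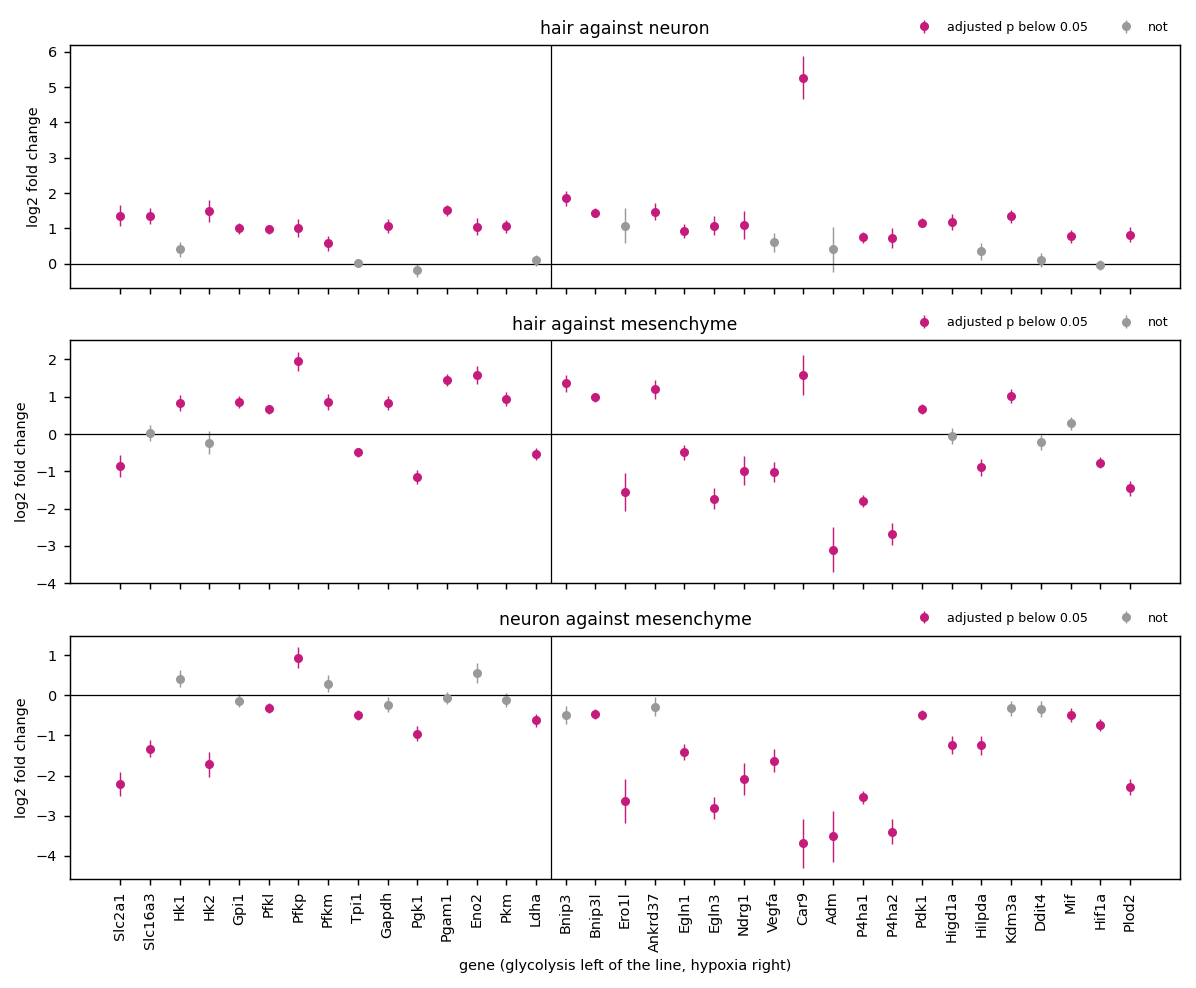
Points give the edgeR log2 fold change of each member (horizontal axis) between 2 classes over 4 libraries, with bars of 1 SE, and colour marks an adjusted p below 0.05. Car9 leads the top panel at 5.27, and in the bottom panel the hypoxia members lie at or below 0, down to Car9 at -3.68.

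Cells of a class were also ranked within their library by the summed glycolysis members, after thinning to 3000 UMIs, and the upper and lower tertiles were compared without a test. Hypoxia members were higher in the glycolysis-rich cells in all 18 pairs of class and library with 90 cells or more. The ratio of their summed level ran from 1.67 in GFP low Merkel cells to 3.77 in GFP low mesenchyme, with a median of 2.39. Counted gene by gene, 241 of 349 member values at 10 CPM or more had an interval above 1 and 9 below 1, against 5.5% above and 9.39% below for all genes other than the glycolysis members. These shares were not matched for expression level, and genes with few UMIs seldom have an interval that excludes 1. Bnip3, Higd1a and Mif had intervals above 1 in 18 of 18 pairs, Egln1 in 17 and Bnip3l, Ero1l and Egln3 in 16. In day 20 mesenchyme Bnip3 had 280 UMIs in the lower and 2171 in the upper tertile, a ratio of 7.75 (6.84 to 8.81). In hair cells of day 16 it had 84 and 127, a ratio of 1.51 (1.14 to 2.02). Car9 in GFP high hair cells had 102 and 1064 UMIs, a ratio of 10.4 (8.51 to 12.9). Hif1a went the other way, with its interval above 1 in 0 and below 1 in 9 pairs, and a median ratio of 0.651. Mitochondrial genes were lower in the glycolysis-rich cells in 18 of 18 pairs, with a median ratio of 0.583, and ribosomal protein genes were higher in 17. A class can hold several cell states, and the part of state and RNA quality in these ratios was not tested.

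**Figure D5:**
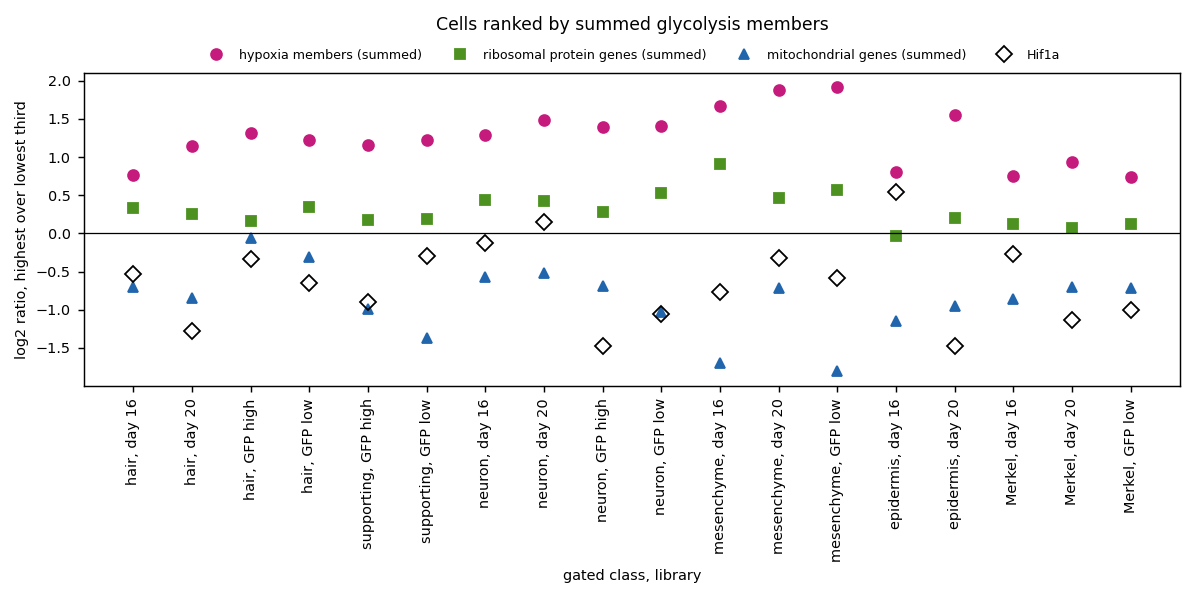
Symbols give the log2 ratio, upper over lower tertile of cells ranked by summed glycolysis members, for the summed hypoxia members, ribosomal protein genes and mitochondrial genes and for Hif1a, in 18 pairs of class and library (horizontal axis). The hypoxia members lie above 0 in all pairs (ratios 1.67 to 3.77), mitochondrial genes lie below 0 in all, and Hif1a is above 0 in day 20 neurons and day 16 epidermis alone.

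Further genes of both pathways were read from 2 lists of 33 and 35 genes. Members and lists alike were chosen with earlier results of these data known. In mesenchyme at day 20, 2 of 17 tested other glycolysis genes were higher and 1 lower. The median log2 ratio of these 17 was 0.05, with 10 above a ratio of 1. That of the glycolysis members was 0.93 and that of all genes -0.20. Pfkfb3, which makes the activator of phosphofructokinase, rose 2.82-fold, and the aldolase gene Aldoa 2.06-fold. Of 27 other oxygen-sensing genes 6 were higher and 1 lower, with Fam162a from 510 to 1942 CPM, a ratio of 3.81. The median log2 ratio of these 27 was 0.42, against 1.19 for the hypoxia members. The clock-related repressor gene Bhlhe41 rose 8.04-fold and its relative Bhlhe40 2.19-fold. Hair cells had 3 of 17 and 4 of 24 called higher and 0 and 1 lower, with the muscle-type mutase gene Pgam2 from 12.2 to 89.6 CPM and the carbonic anhydrase gene Car12 from 16.5 to 66.1 CPM. Neurons had 0 of 16 and 0 of 18 called in either direction. Between the GFP libraries, Car12 was lower with high GFP in hair cells, at 198 against 679 CPM, the 1 gene called there from these 2 lists. Supporting cells had none called, and neurons 1 other glycolysis and 2 other oxygen-sensing genes lower. Mesenchyme had 1 other glycolysis gene higher and 1 lower, and 3 of 31 other oxygen-sensing genes higher and 1 lower. The shares of all genes called, given above for each class and comparison, apply to these counts too. Hair cells exceeded neurons by the edgeR test for 12 of 27 other glycolysis and 15 of 33 other oxygen-sensing genes and were lower for 2 and 3, against 28.6% of all genes higher and 29.3% lower. Neurons were lower than mesenchyme for 20 of 33 other oxygen-sensing genes and higher for 2, against 26.9% of all genes lower and 27.9% higher.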

How the data were processed

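Single-cell RNA counts of 4 libraries were used as the authors deposited them: UMI counts per gene and cell barcode, not normalized. Per the file headers they came from Cell Ranger 6.1.2, whereas the submitters' processing notes name Cell Ranger 6.1.0, Seurat 4.0.6 and build mm10. The members and gene lists were chosen with earlier results of these data known, and the gate levels were set after the distributions of marker sums were seen. The labels name no separate cultures.

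Cells were kept with 1000 genes or more and at most 15% mitochondrial UMIs, and the barcodes with the highest doublet scores, 0.8% per 1000 barcodes, were removed with Scanpy 1.11.5. This left 3353 of 4277, 4313 of 5619, 3428 of 3844 and 3669 of 4467 barcodes. A class gate needed 3 markers and a marker sum, in UMIs per 10000, of 30 (hair), 10 (supporting), 40 (neuron, mesenchyme, epidermis), 200 (Merkel) or 20 (nonsensory otic, pluripotent). The last 2 classes were used only to exclude cells.

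UMIs were summed per library and class and divided by the class total (CPM). Library ratios have exact conditional binomial 95% intervals and were formed where both libraries held 50 cells or more. List medians use log2((CPM + 1)/(CPM + 1)). Class contrasts used edgeR 4.0.16 on sums of 20 cells or more with library as block, and DESeq2 1.42.0 as an alternative. The SE of a class contrast was taken as the absolute log2 fold change divided by the square root of edgeR's quasi-likelihood F statistic. The pairing by library is the shared sample itself. All members are named. Up to 4 genes of each other list were eligible by largest ratio at 20 CPM or more. Promoter sequences are from RefSeq (GRCm38.p6). Reads from Gapdh, Tpi1, Pgk1, Pgam1, Ldha and Mif can be shared with near-identical processed copies, so how reads were split between them is uncertain.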

Additional observations from a re-analysis of the deposited data

Results flagged for a closer look

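Of the members, 4 moved in opposite directions in a pair of classes under the same comparison, with counting intervals that excluded 1 in both and a 2-fold call in at least 1. The share of all genes that meet this rule was not taken, so whether the count is unusual cannot be told. Further members had opposite directions with intervals excluding 1 but no 2-fold call, such as Vegfa, Pgk1 and Hif1a between days. With 1 library per group the differences were not tested across replicates.

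Ndrg1 had a GFP high over GFP low ratio of 1.57 in neurons and 0.358 in supporting cells. Slc2a1 had a day 20 over day 16 ratio of 2.3 in hair cells and 0.75 in neurons, a difference of log2 ratios of 1.62 (95% counting interval 1.31 to 1.92). Hk2 had a day 20 over day 16 ratio of 2.01 in mesenchyme and 0.79 in epidermis. P4ha2 had a day 20 over day 16 ratio of 3.07 in mesenchyme and 0.706 in neurons, a difference of log2 ratios of 2.12 (1.85 to 2.40).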

How the results depend on the processing

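No direction of a called value reversed under the alternatives. Counts of members called moved as follows, and the cause was not tested unless the setting is itself a looser or stricter rule. With a ratio of 1.5 in place of 2, day 20 over day 16 gave glycolysis members higher of 4 in all cells, 10 in hair cells, 2 in neurons, 12 in mesenchyme, 1 in epidermis and 3 in Merkel cells, and hypoxia members higher of 10 in hair cells and 4 in neurons. All genes higher by that rule were 10.2%, 11.9%, 8.54%, 9.1%, 6.94% and 9.02% in those 6, so the glycolysis counts in neurons and epidermis lie near the background. The same rule gave, for GFP high over GFP low, glycolysis members lower of 1 in all cells, 1 in supporting cells and 6 in neurons, hypoxia members lower of 5 in all cells, 3 in hair cells, 7 in supporting cells and 4 in neurons, and hypoxia members higher of 2 in neurons and 1 in mesenchyme. All genes lower by it were 15.3% in all cells, 4.58% in hair cells, 2.26% in supporting cells and 5.36% in neurons, and higher 5.77% in neurons and 4.44% in mesenchyme. For the settings that follow, apart from the hair cell subsets, the share of all genes called was not taken. Their counts, here and below, therefore stand without a background. TMM scaling gave, between days, glycolysis members higher of 3 in all cells, 12 in mesenchyme, 1 in epidermis and 2 in Merkel cells. With doublets kept, glycolysis members higher in mesenchyme between days were 4 and glycolysis members lower in neurons between GFP libraries 0.

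A doubled gate level gave, for GFP, hypoxia lower 1 in supporting cells, glycolysis lower 0 and hypoxia higher 1 in neurons, and hypoxia 1 higher and 1 lower in mesenchyme. Between days it gave hypoxia higher 1 in neurons and 1 in epidermis. A halved gate level gave, for GFP, hypoxia lower 1 in supporting cells, glycolysis lower 3 and hypoxia lower 2 in neurons, and, between days, hypoxia higher 3 in Merkel cells. The mean of per-cell CPM gave, for GFP, hypoxia lower 1 in all cells and 1 in supporting cells and hypoxia higher 1 in neurons, and, between days, hypoxia higher 2 in neurons and 3 in Merkel cells. Without a CPM minimum, neurons gave hypoxia lower 1 for GFP, and hypoxia 1 higher and 1 lower between days. Without cells that hold an Mki67 or Top2a UMI, GFP gave hypoxia lower 1 in all cells, and glycolysis lower 0 and hypoxia higher 1 in neurons. CPM without mitochondrial and ribosomal protein genes gave glycolysis lower 0 in neurons. Ocm-positive and Grp-positive hair cells gave hypoxia lower 1 each.

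For classes, the fit with no replicate block gave glycolysis lower 2 in hair cells against mesenchyme and glycolysis higher 0 in neurons against mesenchyme. A halved gate level gave 1 for the former, and a doubled one and no filter beyond 1 UMI gave 2 for the latter. Without 1 library in turn, glycolysis lower in hair cells against mesenchyme ran from 2 (without GFP low) to 4, and glycolysis higher in neurons against mesenchyme from 0 (without day 16) to 3 (without GFP high). The other 572 of 628 counts stayed within 1.5 times. A count of 0 that stayed 0 is included in these, and most of the main counts were 0. Thinning to 5000 UMIs gave ratios of the hypoxia members of 1.68 to 3.73. Low counts limit Adm and Car9 in neurons, where both were under 10 CPM at days 16 and 20.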
